A study of Mus musculus with 38 samples.

Results

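Genes of the oligodendrocyte lineage were followed through RNA, promoter marks and DNA methylation in neural stem/progenitor cells (NSPCs) of the mouse subventricular zone (SVZ), the stem cell niche along the lateral ventricles. The 9 genes were chosen by name from the 25965 genes of the RNA table. No cut on a measured value was used, but earlier results of these data were known. Each gene has 1 row there and at least 1 promoter window. Of these, 6 mark progenitors (Olig1, Olig2, Sox10, Pdgfra, Cspg4 and Gpr17) and 3 are myelin genes (Cnp, Mbp and Mog). The main cells came from male mice of strain C57BL/6JBabr at 3 months (young) or 18 months (aged), with no genetic change or drug treatment in either group. Each derivation pooled the SVZ of 5 mice, and 3 derivations per age were grown as free-floating neurospheres with EGF and FGF2 and harvested at passage 2, so each library describes an expanded, dividing culture and not the tissue or a single animal. RNA was read in 3 young and 3 aged libraries of this strain and in 1 young and 1 aged library of strain C57BL/10 from another animal facility, where strain and facility cannot be told apart. H3K4me3 and H3K27me3 chromatin immunoprecipitation was done on 3 replicates per age, of which the table used here holds 1 merged value per mark and age, and 3 libraries per age were read by bisulphite sequencing (BS, which counts 5mC and 5hmC together) and 3 by oxidative bisulphite sequencing (oxBS, which counts 5mC alone).

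Neural stem cells of the adult SVZ mainly produce neuroblasts for the olfactory bulb, but some of their progeny become oligodendrocyte progenitors for the corpus callosum and neighbouring white matter. The helix-loop-helix factors OLIG2 and OLIG1 open this fate, SOX10 then drives the progenitor and myelin programmes, the PDGF receptor PDGFRA and the proteoglycan NG2 (Cspg4) mark dividing progenitors, and the receptor GPR17 marks a short committed stage before myelination. CNP, myelin basic protein and myelin oligodendrocyte glycoprotein belong to the myelinating cell, where MOG, on the outer face of the sheath, appears last. OLIG2 is also present in dividing SVZ progenitors that are not bound for the oligodendrocyte fate, and EGF signalling is known to favour it.

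The RNA libraries held between 16952486 and 41053972 reads as recovered from the deposited scale, and 65.5% to 69.3% of these fell on genes. The cells carried the label's markers: all 8 neural stem cell genes on the marker list passed the low-value filter, and their summed RNA was 6236 to 8092 RPM (reads scaled to a common library total) in the 6 C57BL/6JBabr libraries. The astrocyte list was also well represented, with summed RNA of 2124, 2500 and 2412 RPM in the young and 1917, 1933 and 2168 RPM in the aged libraries. Summed microglial RNA was low, at 5.05 to 6.67 RPM in C57BL/6JBabr, and C1qa, a defining microglial gene, had no read in any library. Csf1r, at 2.31 to 2.73 log2 RPM in these 6 libraries, was the only gene of that list past the filter. Among these lists none of the tested genes passed the age test, where 0 of all 14858 genes tested did. Their median aged-minus-young differences (log2 RPM) were 0.01 for 8 neural stem cell genes, -0.17 for 8 astrocyte genes and -0.11 for 6 neuroblast and neuron genes. They were -0.16 for 4 ependymal genes, -0.15 for 2 endothelial genes and -0.19 for 2 fibroblast genes. The single tested microglial and pericyte genes were at -0.11 and 0.38. Of the 8 astrocyte genes 1 had a higher value in aged cells. Gfap (-0.54, p 0.0117) and Aldoc (-0.44, p 0.0485) alone had an unadjusted p below 0.05 in limma, beside 1.74% of all genes.

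The RNA of the 9 genes ran from among the most abundant in these cells to almost no reads, and the order did not follow the split into progenitor and myelin genes. Set per kilobase of exon, so that genes of different length can be compared, Olig1 stood first at 8.76 ± 0.16 log2 RPM per kb (SD, n = 8 libraries), above 99.9% of genes, followed by Olig2 at 7.10 ± 0.18 and by the myelin gene Cnp at 5.95 ± 0.23. Cspg4 (0.55 ± 0.43) and Mbp (-0.40 ± 1.79) lay near the middle of all genes, at percentiles 57.4 and 52.0. Sox10 (-2.29 ± 0.61), Mog (-2.80 ± 1.72), Pdgfra (-3.03 ± 0.49) and Gpr17 (-5.37 ± 1.69) came last. The first 3 steps of this order separated all 8 libraries, whereas from Cspg4 downwards the ranges of neighbours overlapped: Cspg4 was above Mbp in 6 of 8 libraries, Mbp above Sox10 in 6, Sox10 above Mog in 4 and Mog above Pdgfra in 5. The transcription factors that open the lineage were thus abundant in every library, while the receptor that progenitors need for PDGF, the factor SOX10 and the gene of the last myelin stage were all low. In bulk RNA, fewer cells of a type and less RNA per cell cannot be told apart.

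**Figure D1:**
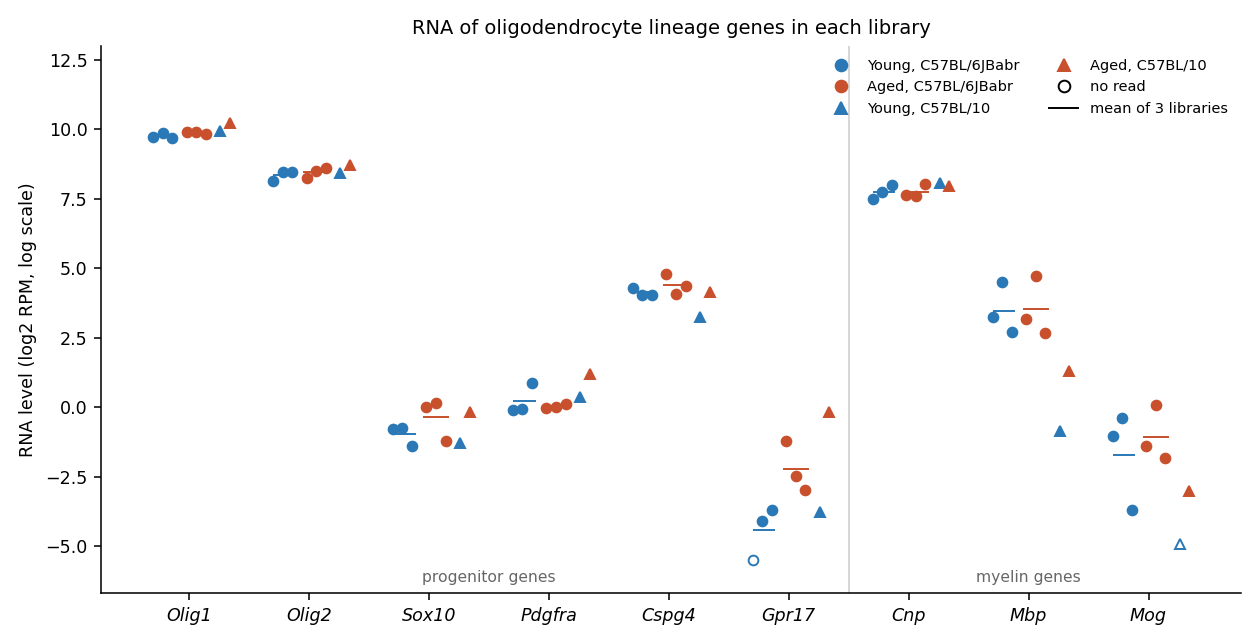
RNA of the 9 genes (log2 RPM, a log scale not corrected for gene length) in each of 8 libraries, with circles for C57BL/6JBabr, triangles for C57BL/10, open symbols for a gene with no read and a bar at the mean of 3 libraries. Olig1, Olig2 and Cnp sit between 7.48 and 10.21 in every library, Gpr17 is low with all aged above all young values, and both triangles of Mbp lie below its 6 circles.

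Olig1 and Olig2 lie 44219 bases apart on chromosome 16 (GRCm38, Olig1 at chr16:91269769-91271939 and Olig2 at chr16:91225550-91228677, both on the plus strand). Olig1 stood at 9.71, 9.85 and 9.69 log2 RPM in the 3 young libraries and at 9.89, 9.91 and 9.83 in the aged ones. Olig2 stood at 8.15, 8.46 and 8.46 in the young and at 8.24, 8.50 and 8.60 in the aged libraries. Both genes were a little higher in the aged library of each of the 3 replicate numbers, with overlapping groups for each. The aged-minus-young difference in limma was 0.13 for Olig1 (SE 0.11, 95% interval -0.13 to 0.39) and 0.09 for Olig2 (SE 0.13). A rise of Olig1 above 0.39 on the log2 scale lies outside its interval. A noncoding gene on the opposite strand, Gm15966, shares 157 exon bases with Olig1 in reads without strand information, but it held next to no reads itself.

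Sox10 (chr15:79154913-79164490, minus strand), the factor needed for the whole later lineage, was read only 24, 10 and 10 times in the young and 40, 31 and 17 times in the aged libraries. These counts correspond to -0.77, -0.76 and -1.38 against 0.00, 0.16 and -1.22 log2 RPM. Sox10 was higher in the aged library of all 3 replicate numbers, by 0.77, 0.92 and 0.17, but the third aged library fell among the young ones as a group. The difference of 0.62 (SE 0.43, interval -0.37 to 1.61) did not pass the test, and it was 0.37 without the second aged library and 1.05 without the third. Counts this low leave a wide interval, and neither a small fall nor a rise of more than 1 on the log2 scale lies outside it.

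Pdgfra (chr5:75152291-75198204, plus strand) had 38, 16 and 48 reads in the young and 39, 28 and 43 in the aged libraries, or -0.11, -0.08 and 0.88 against -0.04, 0.02 and 0.12 log2 RPM. The third young library was the highest and set the sign of the difference (-0.19, SE 0.32), which turned to 0.13 without it. The same library had the highest summed RNA of the fibroblast marker list, 6.78 RPM against 0.926 to 3.54 RPM in the other C57BL/6JBabr libraries. Fibroblasts also express Pdgfra, and their part in this value was not tested.

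Cspg4 (chr9:56865104-56899870, plus strand), which encodes the NG2 proteoglycan, was well read, at 807, 280 and 430 reads in the young and 1115, 471 and 805 in the aged libraries. On the log2 RPM scale it stood at 4.30, 4.05 and 4.04 against 4.80, 4.09 and 4.35, higher in the aged library of all 3 replicate numbers, with overlapping groups. The difference of 0.28 (SE 0.18, interval -0.13 to 0.70) did not pass the test, and it was 0.09 without the first aged library and 0.45 without the second. NG2 is also made by pericytes, whose summed marker RNA was 0.341 to 1.15 RPM in the young and 0.65 to 1.04 RPM in the aged libraries, and their part in the value was not tested.

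Gpr17 (chromosome 18, minus strand) showed the widest gap between ages among the 9 genes, on few reads: 0, 1 and 2 in the young libraries and 17, 5 and 5 in the aged ones. All 3 aged libraries were above all 3 young ones, as in 5.4% of the 1946 genes below the filter on low values (a mean of -2 log2 RPM) that had at least 10 reads in all. Summed over libraries and scaled to their totals, aged cells held 7.06 times the young level (95% interval 2.17 to 36.4, counting error only). The ratio rests on few libraries: it was 4.17 (1.07 to 23.6) without the first aged library, which held 17 of the 27 aged reads, 3.62 (1.11 to 18.6) without the first young library and 14.6 (2.41 to 598) without the third young library. The C57BL/10 pair had 2 reads in the young and 22 in the aged library, a ratio of 12.2 (2.99 to 107, counting error only). With 1 library per age, that pair gives no measure of the spread between derivations. Because its mean lay below that filter, Gpr17 was not among the genes tested. When the filter was dropped the limma difference was 2.21 (SE 0.68) with an adjusted p of 0.842. With the filter dropped and the replicate number also set as a block, a fit added after the data had been seen, the adjusted p was 0.00855, where 1.33% of all 25965 genes were called. Lims2, which runs through the locus on the opposite strand and shares 188 exon bases, was itself low and showed no such order (-3.36, -4.24 and -2.12 log2 RPM young, -4.32, -3.79 and -2.72 aged).

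Cnp (chr11:100574904-100591729, plus strand), the cyclic nucleotide phosphodiesterase of the myelin sheath, was the highest of the 3 myelin members. It stood at 7.48, 7.75 and 7.99 log2 RPM in the young and at 7.63, 7.58 and 8.02 in the aged libraries. The groups overlapped almost fully, and the difference was 0.00 (SE 0.16, interval -0.37 to 0.37). Dnajc7, at 7.04 to 7.60 log2 RPM, shares 154 exon bases with Cnp on the other strand, so a small part of either gene's reads cannot be assigned.

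Mbp (chromosome 18, plus strand) had 386, 381 and 171 reads in the young and 358, 731 and 253 in the aged libraries, or 3.23, 4.49 and 2.71 against 3.16, 4.72 and 2.68 log2 RPM. Mog (chr17:37010746-37023398, minus strand) had 20, 13 and 2 reads in the young and 15, 29 and 11 in the aged libraries, or -1.04, -0.38 and -3.71 against -1.41, 0.07 and -1.84 log2 RPM. For both genes the second library of each age was the highest and the third the lowest, and the ages overlapped. The age difference was 0.04 for Mbp (SE 0.58, interval -1.28 to 1.37) and 0.64 for Mog (SE 0.88, interval -1.37 to 2.66).

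None of the 8 members tested was called between the ages at an adjusted p of 0.05 (limma, each adjusted p 0.99998), as was none of the 14858 genes tested, a share of 0%. At an unadjusted p below 0.05 there were 258 genes, or 1.74%, and no member. edgeR on the recovered reads also called 0 genes (257 at an unadjusted p below 0.05), and DESeq2 called 4 genes, none a member. A block for the replicate number raised the calls of limma to 74 genes, or 0.498%, again without a member. The nearest was Cspg4, at an adjusted p of 0.372. The 5 tested progenitor members had a median difference of 0.13, with 4 above 0, and the 3 myelin members had a median of 0.04, beside 0.00 over all genes tested. The 2 groups of libraries did not overlap in 5.2% of the tested genes, with the aged group above in 3.14%, and in 0 of the 8 tested members. The derivations are separate pools of mice, but same-numbered young and aged libraries deviated together (r of 0.659, 0.179 and 0.724). Without the block, the p-values thus carry the spread between pools together with the part that both ages of a number share. The median residual SD was 0.173 without the block and 0.108 with it.

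**Figure D2:**
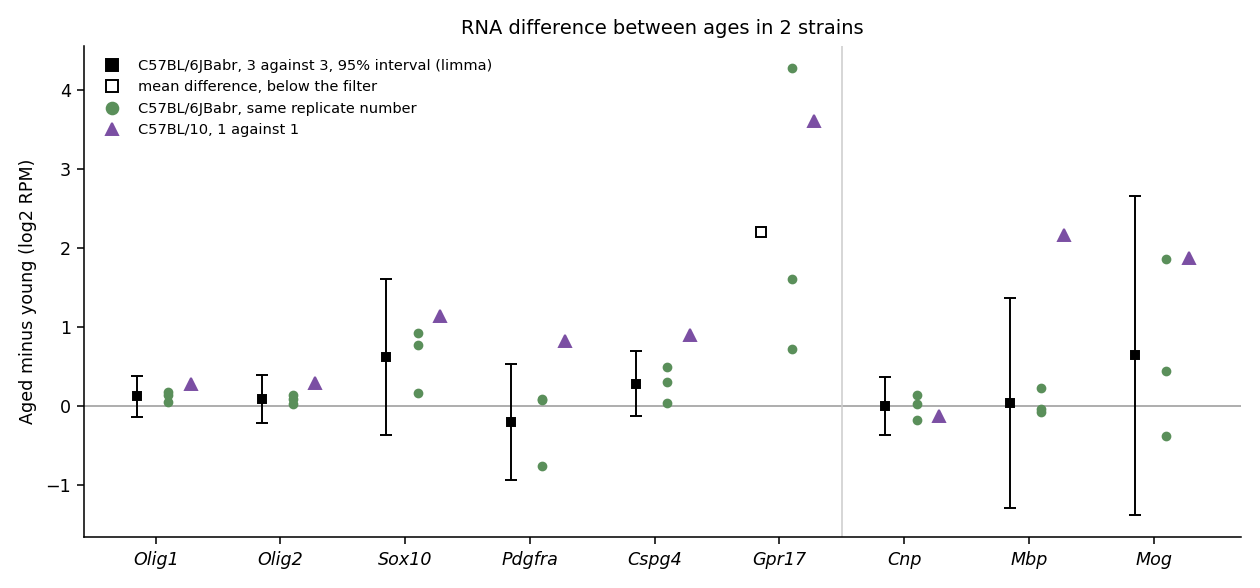
Aged-minus-young differences (log2 RPM) with squares and 95% limma intervals for C57BL/6JBabr (3 against 3 libraries), circles for the differences within each replicate number and triangles for C57BL/10 (1 against 1). Every interval of the 8 tested genes crosses 0, Gpr17 has an open square without an interval because it fell below the filter, and the triangles of Gpr17 and Mbp stand at 3.60 and 2.17.

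Of 80 further lineage genes in 5 lists 77 were in the RNA table (Myrf, Lhfpl3 and Epb41l2 were not), 66 of these passed the filter and were tested for age, with 0 called in every list by limma with or without the block. Of the transcription factors 12 of 14 were tested and 7 had a higher value in aged cells, with a median difference of 0.06. Their ends were Zfp488, a partner of OLIG2, at 0.80 and Sox6 at 0.33, against Id4, an inhibitor of helix-loop-helix factors, at -0.29 and Zfp536 at -0.74. Of the surface and matrix genes of progenitors 11 of 14 were tested, 6 higher, with a median of 0.00. Pcdh15 (0.63) and the auxiliary AMPA receptor subunit Cacng4 (0.49) were at the upper end and Matn4 (-0.51) and C1ql1 (-0.86) at the lower. Over the 5 lists 5 of 66 tested genes had an unadjusted p below 0.05 in limma, beside 1.74% of all genes: Sox6 (0.0063), Sox8 (0.0251), Pcdh15 (0.00404), Cacng4 (0.0192) and Gpr37 (0.0219), all with higher values in aged cells.

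Of the ligands and receptors that act on progenitors 12 of 14 were tested, 7 of them higher, with a median of 0.05. Gpr37 (0.47) and Fgf2 (0.31) were highest and the purinergic receptor P2ry12 (-0.61) and the growth factor Igf1 (-0.71) lowest. Among committed precursor genes 11 of 12 were tested, 7 higher, with a median of 0.07 and a narrow range from -0.15 (Itpr2) and -0.06 (Kif19a) to 0.19 (Bcas1) and 0.26 (Nfasc). Among the other myelin genes 20 of 26 were tested, 12 higher, with a median of 0.14, from Aspa (-0.64) and Apod (-0.40) to Cntn2 (0.37) and Gjc3 (0.95), the gene of a gap junction protein. None of these named genes passed the adjusted test.

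Differences between derivations were plain for the myelin genes. Of 23 myelin genes past the filter, members included, 14 were highest in the second young library and 15 in the second aged library. Of the 23, 12 (52.2%) were highest in both, beside 8.15% of all genes tested, among them Mbp, Mog, Mag, Mobp, Mal and Cldn11. The count was made for the second library alone, where the members Mbp and Mog peaked, so the share is partly set by that choice. Cnp did not share this order and was highest in the third library of each age. So was the summed RNA of the other 26 myelin genes, at 531, 734 and 861 RPM (young) and 611, 622 and 915 RPM (aged). The most abundant of these genes, Trf and Plekhb1, weigh most in the sum, at 8.71 and 8.17 log2 RPM in the third young library. Both were highest in the third library of each age. The ependymal marker sums ran in the same order, at 32.3, 67.9 and 104 RPM (young) and 35.3, 55.4 and 96.0 RPM (aged). Their part in these values was not tested. Over the 8 RNA libraries the levels of Mbp and Mog had a Pearson correlation of 0.91, whereas Cnp ran opposite to Mbp (-0.69) and to Mog (-0.80). These are descriptions over libraries that share strain and derivation. Among 14828 genes the patterns closest to that of Mbp over the 8 libraries were those of Srsf2 (r = 0.988), Pabpc1l (0.982) and the myelin gene Mag (0.981).

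By the same measure the closest to Cnp were D10Jhu81e (0.992), Cryab (0.990) and Gnb5 (0.986). The closest to Olig1 were Ltbp4 (0.987), Fam59b (0.985) and Atcay (0.984), and to Olig2 Dip2a (0.986), Fem1a (0.977) and Crtc1 (0.976). Sox10 ran closest to Ncoa5 (0.984), Ythdf2 (0.972) and Enah (0.967), Pdgfra to Fgd1 (0.993), Mrps2 (0.964) and Zfp296 (0.955), and Cspg4 to Rbm20 (0.984), Dpf2 (0.971) and Gadd45g (0.967).

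In the C57BL/10 cohort Mbp was the member that stood apart. Its level was -0.86 log2 RPM in the young and 1.31 in the aged library (15 and 61 reads), both below the lowest of the 6 C57BL/6JBabr libraries at 2.68. At equal age the difference from C57BL/6JBabr was -3.27 (SE 0.65, adjusted p 0.00558, limma), where 29.7% of the 14828 genes were called, 11.5% lower and 18.2% higher in C57BL/10. All fits of this cohort difference, in limma and edgeR, take the 1 young and 1 aged C57BL/10 library as independent replicates. Their p-values therefore do not measure the spread between C57BL/10 derivations. The median over all genes was itself shifted by 0.17 on the deposited scale and by -0.01 under edgeR's scaling, and relative to that median Mbp was at -3.45 and -3.37. Under edgeR it was also called (adjusted p 0.0185), with 4.25% of genes called higher and 13.1% lower. Mog had 0 and 3 reads in C57BL/10 and fell below the filter, and without the filter its difference was -2.59 with a limma adjusted p of 0.0371, where 8.65% of the 25965 genes were called higher and 6.81% lower.

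Olig1, Olig2 and Cnp lay close to their C57BL/6JBabr levels. Olig1 stood at 9.93 in the young and 10.21 in the aged C57BL/10 library, Olig2 at 8.42 and 8.71, and Cnp at 8.07 and 7.95 log2 RPM. Relative to the median of all genes their differences between cohorts were 0.09, -0.01 and 0.10 in limma. Cspg4 was at 3.25 and 4.16, and its difference of -0.57 missed the threshold in limma (adjusted p 0.0558) and passed it under edgeR (-0.74, adjusted p 0.0343). Pdgfra differed by 0.64 (adjusted p 0.171 in limma) and Sox10 by -0.07 (0.903). Without the third young library the difference of Pdgfra was 0.83 and that of Mog -3.02. Both were then called, at adjusted p of 0.0381 and 0.0102 in limma, where 4456 of 14827 genes were. Cspg4 was called in limma without the second aged library (adjusted p 0.0254), where 3578 of 14811 genes were. It was also called without the low-value filter (limma adjusted p 0.0373), where 15.5% of genes were.

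Among the listed lineage genes, Hes5, a Notch target, was lower in C57BL/10 by -2.45 (adjusted p 0.00248 in limma, also called by edgeR) and the myelin gene Mag by -3.62 (0.0128 in limma, 0.0521 in edgeR). Higher in both fits were Pcdh15 (1.14), Igf1 (1.38), Gpr37 (0.78), the carbonic anhydrase gene Car2 (0.74) and the calcium channel gene Itpr2 (0.45). In limma, where 18.2% of all genes were called higher and 11.5% lower, the calls were 5 of 12 ligand and receptor genes higher, 3 of 11 surface and matrix genes higher, 1 of 11 committed precursor genes higher, 1 of 12 transcription factors lower, and 1 of 18 myelin genes higher and 1 lower. In edgeR, with 4.25% of all genes higher and 13.1% lower, they were 2 ligand and receptor, 1 surface and matrix, 1 committed precursor and 1 myelin gene higher and 2 transcription factors lower. The myelin list had a median relative to all genes of -0.43 in limma. Of the 8 astrocyte markers, Gfap (-0.70) and Aldoc (-0.97) were called lower and Gja1 (0.96) higher in C57BL/10 in limma, and all 3 also in edgeR. Their part in these values was not tested. All of these are differences between cohorts, in which strain and facility move together.

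The age difference within C57BL/10 rested on 1 library per age and has no replicate check. Mbp had 15 reads in the young and 61 in the aged library, a 4.50-fold difference in RPM, against log2 differences of -0.07, 0.23 and -0.03 within the 3 replicate numbers of C57BL/6JBabr. The other aged-minus-young values in C57BL/10 were 0.28 for Olig1, 0.29 for Olig2, 1.15 for Sox10 and 0.82 for Pdgfra. For Cspg4, Gpr17, Cnp and Mog they were 0.91, 3.60, -0.13 and 1.88. The test of the difference between strains called 1 of 14828 genes (0.00674%) and 0 of 7 members tested. For Mbp it gave 2.13 (SE 1.17, interval -0.57 to 4.82, adjusted p 0.999999 in limma). With the replicate number as a block the SE fell to 0.23 and Mbp was called, at an adjusted p of 0.00323, as were 36 genes in all (0.243%, with 0.148% higher and 0.0944% lower). That fit assumes that the lone C57BL/10 libraries vary as little as C57BL/6JBabr libraries do after the block is removed.

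Promoter marks divided the members more sharply than their roles did. H3K4me3 marks the starts of active or poised genes, H3K27me3 is laid down by Polycomb at silenced ones, and both together are called bivalent. Values are log2 RPM in windows of 5000 bases centred on a transcript start, with Input medians of 0.93 in young and 0.97 in aged cells. Olig2 carried H3K4me3 of 7.24 in young and 7.47 in aged cells, above 99.9% of genes, and Olig1 6.60 and 6.75, above 98.7%. Their H3K27me3 was below their Input at both ages. Cnp followed with H3K4me3 of 5.45 and 5.68 and little H3K27me3 (-0.39 and -0.78), and Cspg4 with 3.60 and 4.10 and H3K27me3 of 0.92 and 0.90, below its Input of 1.31 and 1.27.

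Pdgfra and the upstream start of Mbp carried both marks. At the downstream of 2 Pdgfra starts, 3875 bases into the gene, H3K4me3 was 5.25 in young and 5.35 in aged cells with H3K27me3 of 4.01 and 3.83, and at the upstream start H3K4me3 was 4.13 and 4.03 with H3K27me3 of 5.07 and 5.01, the latter above 97.9% of genes. Mbp has 13 starts in the table, 4 around an upstream start and 8 around one 79100 bases downstream. The upstream start, known for the Golli transcripts that are also made outside myelinating cells, had H3K4me3 of 3.72 and 3.81 and H3K27me3 of 2.74 and 2.75, above 90.0% of genes. The downstream start, which gives classic myelin basic protein, had H3K4me3 of only -0.61 and -1.16 and H3K27me3 of 1.03 and 1.06, both below its Input of 1.06 and 1.17. The RNA table holds 1 value per gene, so the reads of Mbp cannot be split between these starts.

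Sox10 and Gpr17 carried H3K27me3 without H3K4me3. Sox10 had H3K27me3 of 3.50 in young and 3.25 in aged cells (above 93.4% of genes) and H3K4me3 of 0.68 at both ages, below its Input of 1.10 and 1.35. Gpr17 had H3K27me3 of 2.45 and 2.24 and H3K4me3 of -0.88 and -0.89. Mog had neither mark above Input, with H3K4me3 of -0.77 and -0.82 and H3K27me3 of 0.73 and 0.65 beside Input of 1.14 and 0.98. Among the myelin members Cnp thus had H3K4me3 alone, Mbp had both marks at its upstream start and neither above Input at the downstream one, and Mog had neither.

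**Figure D3:**
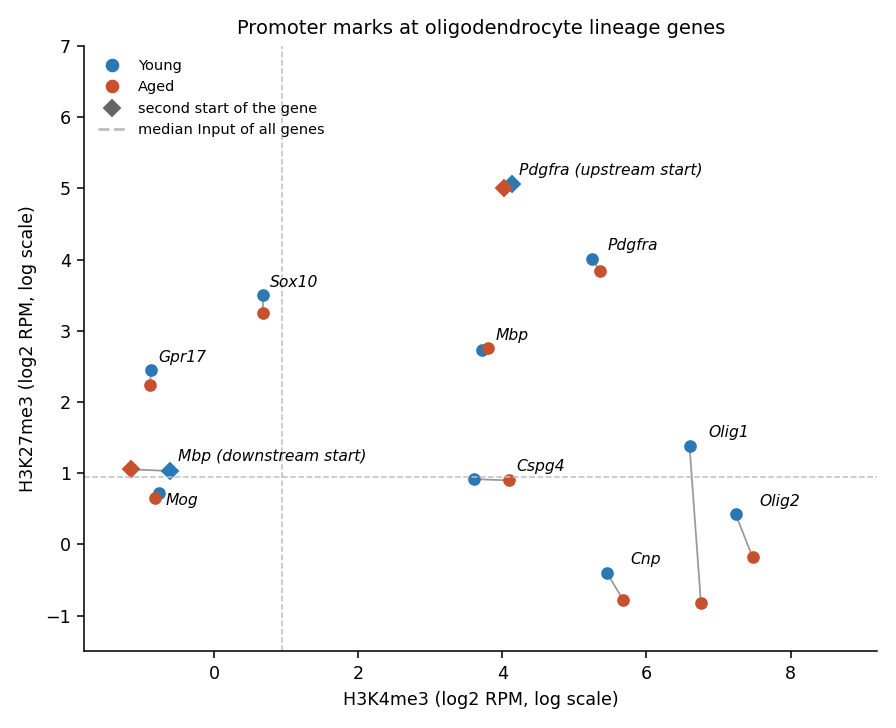
H3K27me3 against H3K4me3 (both log2 RPM, log scales) in 5000-base windows at the start with the most H3K4me3 of each gene (circles) and at a further start of Pdgfra and Mbp (diamonds), with a line from young to aged and dashed lines at the median Input of all genes. Olig1, Olig2 and Cnp lie at the lower right, Pdgfra and the upstream start of Mbp at the upper centre, and Sox10 and Gpr17 at the upper left, and Olig1 shows the longest line.

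Between the ages few members differed in their marks. No member reached a 1.5-fold difference of H3K4me3 at log2 RPM above 1, as did 0.212% of 25888 genes, 0.158% lower and 0.0541% higher in aged cells. At the chosen start of each gene, the largest H3K4me3 difference was at Cspg4, 1.41-fold higher in aged cells. For H3K27me3 Olig1 alone passed, lower in aged cells, where 0.78% of genes were lower and 0.718% higher. Its value was 1.38 in young and -0.82 in aged cells, 4.59-fold lower, while its Input was 1.36-fold lower, at 1.80 and 1.36. The young value was below the young Input, so the window held no more H3K27me3 than background at either age. Olig2 was also 1.52-fold lower in H3K27me3, at 0.42 and -0.18, but both values lay under the minimum level, and with that minimum dropped both genes passed, as did 11.2% of all genes in that direction. With Input subtracted both also passed as higher in H3K4me3, as did 2.34% of all genes. As the table holds a single merged value per mark and age, these differences carry no test.

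The promoter sequences show how differently these starts are built. Of the 9 members 5 were matched in RefSeq's promoter table (GRCm38.p6). The 3 below are printed for their contrast in CpG content, from 250 bases before the start up to the first transcribed base, 5′ to 3′ on the gene's strand, with CpG dinucleotides in capitals.
Olig2 (chr16:91225300-91225456, plus strand): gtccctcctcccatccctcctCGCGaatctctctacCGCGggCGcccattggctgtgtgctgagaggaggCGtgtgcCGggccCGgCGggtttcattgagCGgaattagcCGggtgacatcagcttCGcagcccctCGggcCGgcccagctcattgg
Cspg4 (chr9:56864854-56865032, plus strand): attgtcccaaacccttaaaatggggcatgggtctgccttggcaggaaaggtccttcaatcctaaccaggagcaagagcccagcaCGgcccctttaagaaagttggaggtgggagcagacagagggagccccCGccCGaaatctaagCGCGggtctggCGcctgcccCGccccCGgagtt
Mog (chr17:37023399-37023648, minus strand): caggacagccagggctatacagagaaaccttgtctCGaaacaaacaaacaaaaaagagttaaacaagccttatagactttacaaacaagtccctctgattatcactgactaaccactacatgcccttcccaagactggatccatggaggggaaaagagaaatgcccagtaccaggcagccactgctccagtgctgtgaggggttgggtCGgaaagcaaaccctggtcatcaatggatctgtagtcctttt
The 157 bases of Olig2 held 14 CpGs, the 179 bases of Cspg4 held 8 and the 250 bases of Mog held 2. Over the full 250 bases before the start Olig2 had 22 CpGs, more than 85.2% of 32851 promoters, Cspg4 had 12 and Mog had 2, more than 18.8%, beside a median of 6. In oxBS 0 of 68 calls in the Olig2 stretch were methylated in young cells (up to 5.35%, Wilson 95% interval) and 0 of 7 in aged cells. In the Cspg4 stretch 2 of 31 and 0 of 18 calls were methylated, and in the Mog stretch 6 of 7 and 11 of 12.

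The methylation libraries held 13616283 to 21389132 calls in oxBS and 23121086 to 30400033 in BS, or 1.20 to 1.48 calls per position read, so methylation is given over windows, and all intervals cover counting error only. The starts with H3K4me3 above Input each lay in or next to a valley of 5mC. Within 500 bases of the start 0 of 396 calls were methylated at Olig2 (up to 0.961%) and 12 of 445, or 2.70% (1.55 to 4.65%), at Olig1. The valley of Olig2, with 5mC below 10%, took 6 bins of 500 bases, from 1000 bases before to 2000 after its start, and that of Olig1 took 5, from 500 before to 2000 after. Ahead of the Olig2 valley lay a stretch at 32.2%, and beyond it further bins below 10%. Pdgfra had 1.20% (4 of 334) at its downstream start and 36.0% (45 of 125) at the upstream one.

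Cspg4 had a shallow valley of 16.8% (39 of 232, interval 12.5 to 22.2%). At Cnp the lowest bin lay 500 to 1000 bases before the chosen start, with 0 of 171 calls methylated. Mbp was at 6.65% (23 of 346, interval 4.47 to 9.78%) at its upstream start and at 82.1% (142 of 173, interval 75.7 to 87.1%) at the downstream start of classic myelin basic protein. Sox10 had its lowest bin 500 to 1000 bases after the start, at 16.3% (35 of 215). Gpr17 dipped to 32.7% (17 of 52) just before its start, and Mog was at 75.8% (50 of 66) around its start, with no valley there.

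**Figure D4:**
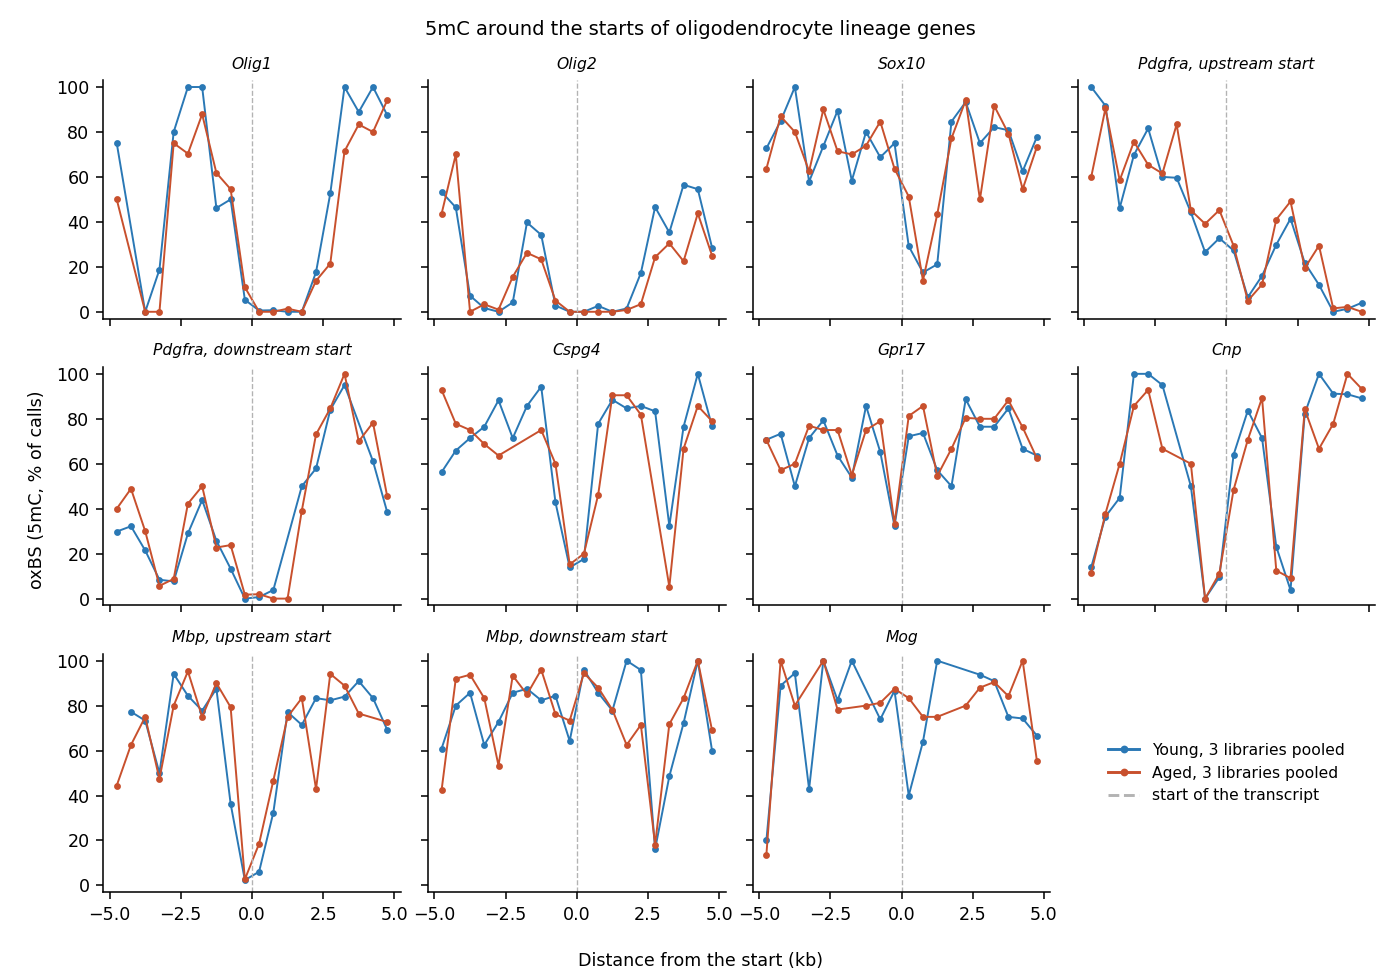
5mC from oxBS (% of calls) in 500-base bins over 5 kb on each side of a transcript start, with 3 libraries pooled per age and bins of at least 5 calls shown. Both ages trace the same valleys, wide at Olig2 and Olig1, with a methylated stretch ahead of Olig2, narrow at Cspg4 and the upstream start of Mbp, and absent at the downstream start of Mbp and at the start of Mog.

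Over whole windows of 5000 bases the order was similar. Pooled over the 6 oxBS libraries 5mC was 5.66% at Olig2, 12.4% at Olig1, 20.7% at the downstream Pdgfra start and 37.8% at the upstream Mbp start. It was 39.1% at Cnp, 47.4% at Sox10, 51.8% at Cspg4, 67.7% at Gpr17 and 77.6% at Mog, beside a median of 33.1% over all promoters. The window at the downstream Mbp start, outside this ranking, was at 83.3%, above Mog. Olig2 stood at percentile 2.5 of the promoters tested and Mog at percentile 87.2. No library of Mog, at 71.8 to 90.0%, came near any library of Olig2, at 3.35 to 12%.

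No member changed its 5mC with age by the test used, a quasi-binomial model of the methylated calls. In oxBS promoter windows 0 of 9 members and 0 of 23798 promoters (0%) were called, with 1291, or 5.42%, at an unadjusted p below 0.05. In BS promoters 0 of 24545 were called (1183 at an unadjusted p below 0.05, or 4.82%), and in oxBS gene bodies 0 of 22276 (1056, or 4.74%). Sox10 alone among the members had an unadjusted p below 0.05 in this model, at 0.0383 in oxBS promoters and 0.0459 in oxBS gene bodies. Most members overlapped between the ages. Olig2, for example, had 3.79, 4.14 and 12% in the young and 3.35, 4.21 and 6.44% in the aged oxBS promoters, and Mbp 33.0, 36.1 and 39.7% against 39.8, 41.2 and 33.3%. Cspg4 had the widest spread, at 41.2, 52.6 and 73.1% in the young and 44.6, 39.6 and 55.8% in the aged libraries.

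Sox10 was the exception in oxBS and not in BS. Its promoter 5mC was 39.7, 44.4 and 42.6% in the young and 48.5, 52.6 and 68.2% in the aged libraries, so that all aged values were above all young ones, a separation, in either direction, that 10.5% of all promoters showed. The means were 42.2 ± 2.4% and 56.4 ± 10.4% (SD, n = 3), a difference of 14.2 percentage points with an adjusted p of 0.914 in the quasi-binomial model and an exact permutation p of 0.1, the smallest that 3 against 3 allows. It shrank to 8.33 points without the third aged library. It was 6.03 points in a window of 1000 bases on each side and 1.07 from 2000 bases before to 500 after the start. The ages were also read unevenly within the window. The stretch 500 to 1500 bases after the start held 214 of 397 young and 102 of 299 aged calls, at 18.7% and 22.5%. Within 500 bases of the start 5mC was 56.7% in young and 55.7% in aged cells. The part of uneven reading in the difference was not tested. Over the gene body the values were 50.3, 55.9 and 52.9% against 58.0, 63.6 and 68.7%, a difference of 10.4 points (adjusted p 0.993, exact permutation p 0.1).

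In BS, which counts 5hmC as well, the Sox10 promoter went the other way, from 57.1, 40.3 and 53.1% in the young to 46.7, 36.3 and 51.3% in the aged libraries, lower in each of the 3 replicate numbers and overlapping as groups, whereas 9.59% of BS promoters did not overlap. BS minus oxBS, the estimate of 5hmC, was 17.5, -4.16 and 10.6 points in the young and -1.81, -16.3 and -16.9 in the aged libraries (exact permutation p 0.2). A share cannot be below 0, and the negative values give the size of the error of this subtraction, which rests on 66 to 189 calls per library here.

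At the member promoters the 5hmC estimate had means from -3.84 (Pdgfra) to 5.99 points (Mbp), with SDs from 2.73 (Mog) to 13.9 (Sox10). With the larger of these SDs, low and moderate 5hmC cannot be told apart. The median over all promoters was 0.94 points. The subtraction was above 0 in 6 of 6 replicate pairs at Olig1 (5.08 ± 3.99 points, SD, n = 6) and at the upstream Mbp window (5.99 ± 3.85), as in 2.73% of 23756 promoters. No other promoter window of the members was above 0 in more than 4 of 6. Aged minus young was 2.56 points for Olig1 and 1.80 for Mbp, with exact permutation p of 0.7 and 0.6, in a design that cannot go below 0.1. In the gene body of Olig2 BS went from 2.37 ± 1.23% to 5.02 ± 2.08% without overlap, as in 9.29% of gene bodies in either direction, while oxBS went from 7.52 ± 3.66% to 3.05 ± 2.14%, again in opposite directions and at levels of few methylated calls. The oxBS difference did not pass the test, and no model was run for BS in gene bodies.

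**Figure D5:**
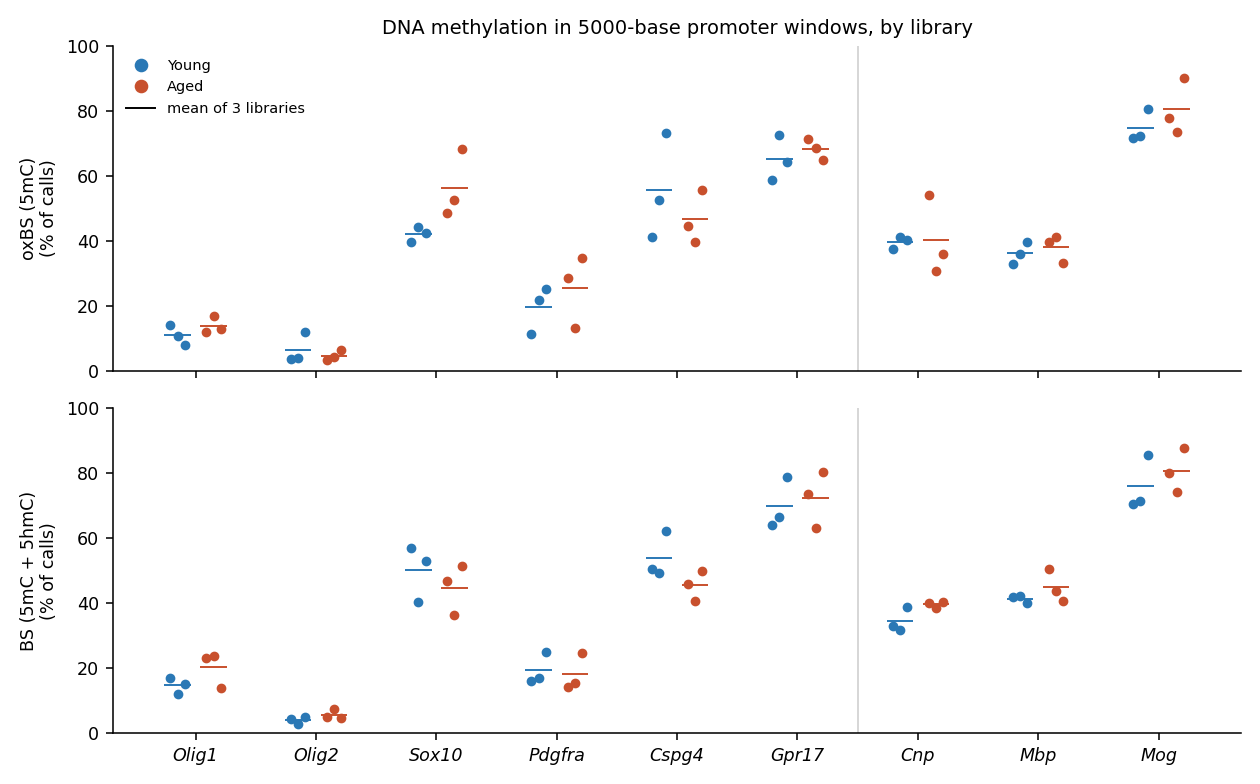
Methylated calls (%, axes from 0 to 100) in the 5000-base promoter window of each gene, for oxBS (5mC, upper panel) and BS (5mC and 5hmC, lower panel), with a point for each of 3 libraries per age and a bar at their mean. Sox10 has all 3 aged points above the young ones in oxBS and not in BS. The Mbp window is the upstream one, and among the windows shown Olig2 is the lowest and Mog the highest in both panels.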

How the data were processed

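RNA, promoter marks and DNA methylation were read in SVZ NSPCs of young and aged mice, grouped by the submitters' labels. The 9 members and all gene lists were chosen with earlier results of these data known. The authors deposited 1 table of log2 RPM per gene for 8 poly(A) RNA libraries made without strand information. A gene with no read holds 0.9 reads there, and 100% of values came out whole within 0.02 reads, so read counts were recovered for 2 alternatives, edgeR and DESeq2. For chromatin the labels list 3 libraries per mark and age and 3 Input libraries per age, and the authors deposited 1 column of log2 RPM for each, with the replicates merged, in 72923 windows of 5000 bases. For each gene the start with the most H3K4me3 was used. For BS and oxBS the authors deposited methylated and unmethylated read counts per cytosine beside a percent methylation, which was not used. The submitters' processing notes name STAR 2.3.0, Bowtie2 2.2.5, Bismark 0.12.5, Trim Galore 0.3.7 and 0.4, and build GRCm38.

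Age was tested with limma 3.58.1 (R 4.3.3) on log2 RPM with a mean-variance trend, for genes with a mean of at least -2, and Benjamini-Hochberg adjustment over all genes. The strain and interaction fits used all 8 libraries. Methylated calls were summed over windows with at least 10 calls in every library and tested in a quasi-binomial model. A mark counted as changed at 1.5-fold with log2 RPM above 1 in an age. BS minus oxBS of 1 replicate number estimated 5hmC, tested by a two-sided exact permutation test. The limma and edgeR fits of age and the quasi-binomial model were tested on simulated data, and the other steps were not. Intervals of shares are Wilson 95% intervals. Gene lengths came from GENCODE on GRCm38 and promoter sequences from RefSeq. Per list, the 2 highest and 2 lowest genes and any called gene were named, and per member the 3 genes with the highest Pearson correlation over libraries. Chosen after their values were seen were Sox8, single marker genes, and genes beyond the members named in the comparisons of derivations and cohorts.

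Replicate numbers pair the RNA libraries: over 14858 genes the deviations of same-numbered young and aged libraries from their group means correlated at 0.659, 0.179 and 0.724. The fit with the number as a block was an alternative, beside edgeR 4.0.16, DESeq2 1.42.0, other filters, other windows and leaving out each replicate.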

Additional observations from a re-analysis of the deposited data

Results flagged for a closer look

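The age difference of Mbp differed between the strains in 1 fit. Within C57BL/6JBabr it was 0.04 on the log2 scale (SE 0.58), and within C57BL/10 it was 2.17, from 15 reads in the young and 61 in the aged library. The interaction was 2.13 with an adjusted p of 0.00323 in limma with the replicate number as a block (interval 1.61 to 2.64), and an adjusted p of 0.999999 without the block (interval -0.57 to 4.82). edgeR on the recovered reads gave 2.02 with an adjusted p of 0.99985. Both fits take the lone C57BL/10 library of each age to vary like the C57BL/6JBabr libraries, among which the level of Mbp ran from 2.68 to 4.72 log2 RPM.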

How the results depend on the processing

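The number of members called kept within 1.5 times the main count in 68 alternative fits and moved in 8. Without the low-value filter and with the replicate number as a block, a fit added after the data had been seen, 1 member (Gpr17) was called between the ages in place of 0, and with the replicate block alone 0 members were. The block added 1 member (Mbp) to the interaction in place of 0. In the strain contrast edgeR called 2 members and no filter 3, in place of 1, where 17.3%, 15.5% and 29.7% of all genes were called. Leaving out each replicate there gave 1 to 3 members, where 3545 to 4629 of 14811 to 14844 genes were called. Subtracting Input called 2 members for H3K4me3 in place of 0, both higher in aged cells as were 2.34% of all genes, and dropping the minimum called 2 for H3K27me3 in place of 1, both lower as were 11.2% of all genes. The replicate block changed no other call: in oxBS promoters, BS promoters and oxBS gene bodies 0 members and 0 windows were called with it, and there same-numbered libraries did not deviate together (r of 0.001, -0.003 and 0.030 in oxBS promoters). The cause of these moves was not tested.

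Small differences turned sign in other fits. For RNA and age, Pdgfra was 0.061 over all 8 libraries, and Cnp was -0.0016 in edgeR, -0.00037 in DESeq2 and -0.030 over all 8 libraries. The strain difference of Olig2 was -0.016 in edgeR. In BS promoters Sox10 was 4.41 points in the window from 2000 bases before to 500 after the start, and Olig2 -0.346 in the window of 1000 bases on each side. Leaving out each library in turn moved the RNA age difference from -0.36 to 0.13 for Pdgfra, from -0.13 to 0.13 for Cnp, from -0.012 to 0.19 for Olig2, from -0.35 to 1.31 for Mog and from -0.56 to 0.55 for Mbp, the interaction of Cnp from -0.25 to 0.0095 and the strain difference of Sox10 from -0.29 to 0.035. In percentage points the ranges were -6.47 to 5.23 for Cnp, -3.39 to 0.696 for Olig2 and -0.197 to 6.75 for Gpr17 in oxBS promoters, -4.43 to 1.65 for Pdgfra and -1.46 to 7.09 for Gpr17 in BS promoters, and in oxBS gene bodies -1.75 to 3.67 for Pdgfra, -5.50 to 0.846 for Cnp, -0.408 to 0.229 for Olig1, -4.30 to 1.52 for Gpr17 and -0.983 to 1.39 for Mbp. The median age difference of 5hmC over the member promoters was 0.508 points and ran from -1.44 to 0.821.

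Depth limits Gpr17, Mog and Sox10 in RNA, which had at most 40 reads in any library, and every methylation value, at 1.20 to 1.48 calls per position.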
